A study of Homo sapiens with 3 samples.

Results

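The collagen genes of the array were described as a group, first by gene and then by collagen class. Members were all probe sets annotated with exactly 1 gene symbol made of COL, a number, A and a number, which gave 43 genes with 112 probe sets out of 19775 named genes and 54675 probe sets. All 43 symbols were also found in the current RefSeq gene table. By class they comprised 11 fibrillar collagens, 6 chains of the basement membrane collagen type IV and 26 others. The members were chosen by name and not by any measured value.

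Collagens are secreted proteins in which 3 chains wind into a triple helix. Fibrillar collagens assemble into the banded fibrils of connective tissue, type IV collagen forms the sheet-like scaffold of basement membranes, and the remaining classes coat fibrils, form beaded filaments, anchor epithelia or span the cell membrane. New chains are hydroxylated and folded in the endoplasmic reticulum, exported in enlarged COPII vesicles, trimmed by proteases and cross-linked outside the cell. Carcinoma cells make some collagens themselves, although much of the collagen in a breast tumour comes from fibroblasts, which are not part of a pure cell line culture.

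RNA came from MDA-MB-231, a human breast cancer line with a mesenchymal phenotype usually counted among the lines that lack the estrogen receptor. Every culture was kept for 4 h in medium with 10% charcoal-stripped serum, which is depleted of steroid hormones, and was then treated for 3 h. The vehicle group received 0.1% ethanol, the estradiol group the natural estrogen estradiol at 1 µM, and the tamoxifen group the antiestrogen tamoxifen at 1 µM. By its title, the series asks how tamoxifen alters early gene expression. Biotin-labelled RNA was hybridised to Affymetrix arrays, with 1 array in each of the 3 groups and no replicate. No difference below therefore has an error, an interval or a test, and precision is limited by the small number of arrays. In RNA from a whole culture, fewer cells with a transcript and less transcript per cell cannot be told apart.

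The deposited values are log2 values centred for each probe set against a baseline that no source used here gives, so a value of 0 is the baseline and not absence of RNA. Their direction (higher meaning more RNA) and the base were assumed. A probe set was taken to lie above a brightness floor when its numbers lay on the binary steps of a single-precision level of at least 4 on the log2 scale. This applied to 12068 named genes. The floor only separates dim from brighter probe sets and sets no order among genes. Over probe sets the vehicle column had a median of -0.04, and the estradiol and tamoxifen columns had medians of -0.02 and -0.02. Across genes above the floor the SD of the vehicle column was 0.20, against 0.49 for estradiol and 0.49 for tamoxifen. Because of this narrower column, each difference from vehicle is given as deposited and, where it matters, with the vehicle value doubled. Which of these is closer to the true difference was not tested. In the poly-A spikes, control RNAs added before labelling, the median difference from vehicle was 1.04 with estradiol and 0.87 with tamoxifen over 24 probe sets, and it was -0.17 between tamoxifen and estradiol. The 3' control probe set of beta-actin stood higher against its 5' partner on the tamoxifen array by 0.89 relative to vehicle and by 0.94 relative to estradiol, while for GAPDH these values were 0.16 and 0.11. The part of the spikes and of the actin control in any result below was not tested.

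All 7 markers fixed for the line, among them the intermediate filament gene VIM and the adhesion receptor gene CD44, lay above the floor. The luminal markers PGR, CDH1 and ERBB3 had no probe set above it, while ESR1, EPCAM and KRT19 had 1 each. Of the 6 fibroblast markers only the collagen gene COL1A1 lay above the floor, and DCN, LUM, PDGFRB, COL1A2 and COL3A1 did not. Of 3 endothelial and 3 leukocyte markers on the array, PECAM1, VWF and PTPRC lay above the floor. None of the 7 line markers passed 1.5-fold in any comparison. ESR1, the estrogen receptor gene, stood at 0.04 with estradiol and at -0.70 with tamoxifen relative to vehicle, in 1 of 9 probe sets. PTPRC stood at -0.40 and 0.22, and at 0.62 between the ligands. The part of these marker values in the collagen results was not tested.

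Of the 43 collagen genes, 21 had at least 1 probe set above the floor, 33 probe sets in all. The other 22 genes lay wholly below it. They were the fibrillar genes COL1A2, COL2A1, COL3A1, COL11A1 and COL24A1, the type IV chains COL4A3 and COL4A6, and 15 of the other class, namely COL6A5, COL6A6, COL8A2, COL9A1, COL9A3, COL10A1, COL14A1, COL19A1, COL20A1, COL21A1, COL22A1, COL23A1, COL25A1, COL26A1 and COL28A1. Each gene was given the average of those of its probe sets that fell in its brightest step class.

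The stretches upstream of the genes on which the results turn are shown here beside the start region of COL4A1 and COL4A2. The first lies between the divergent starts of COL4A1 and COL4A2, which are transcribed away from each other over 126 bases. The next 4 are the 250 bases before the starts of COL4A5, COL6A3, COL15A1 and COL9A2, each written on the strand of its gene. None is shown for COL6A1. All come from RefSeq (GRCh38.p14), in which 31 of the 43 collagen genes had a promoter window. Capitals mark the CCAAT box (CCAAT) and the GC box (GGGCGG), on either strand.
COL4A1 and COL4A2, chr13:110307158-110307283, plus strand (COL4A2): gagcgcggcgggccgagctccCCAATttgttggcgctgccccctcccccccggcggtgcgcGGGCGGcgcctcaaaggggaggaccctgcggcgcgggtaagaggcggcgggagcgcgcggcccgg
COL4A5, chrX:108439588-108439837, plus strand: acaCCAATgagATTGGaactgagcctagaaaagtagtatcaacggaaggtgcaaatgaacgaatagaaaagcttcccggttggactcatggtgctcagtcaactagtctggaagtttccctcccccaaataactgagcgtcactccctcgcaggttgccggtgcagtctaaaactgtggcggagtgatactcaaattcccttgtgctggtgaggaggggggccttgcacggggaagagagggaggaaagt
COL6A3, chr2:237414165-237414414, minus strand: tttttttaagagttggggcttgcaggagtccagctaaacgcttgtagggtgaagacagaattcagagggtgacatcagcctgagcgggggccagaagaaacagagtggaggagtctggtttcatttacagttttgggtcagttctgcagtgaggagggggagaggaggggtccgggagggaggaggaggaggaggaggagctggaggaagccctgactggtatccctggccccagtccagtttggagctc
COL15A1, chr9:98943657-98943906, plus strand: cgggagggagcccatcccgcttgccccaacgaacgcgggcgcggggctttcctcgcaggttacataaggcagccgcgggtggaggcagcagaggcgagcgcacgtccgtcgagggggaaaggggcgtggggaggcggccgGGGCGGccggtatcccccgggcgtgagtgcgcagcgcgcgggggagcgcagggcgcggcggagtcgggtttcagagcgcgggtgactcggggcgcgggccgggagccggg
COL9A2, chr1:40317287-40317536, minus strand: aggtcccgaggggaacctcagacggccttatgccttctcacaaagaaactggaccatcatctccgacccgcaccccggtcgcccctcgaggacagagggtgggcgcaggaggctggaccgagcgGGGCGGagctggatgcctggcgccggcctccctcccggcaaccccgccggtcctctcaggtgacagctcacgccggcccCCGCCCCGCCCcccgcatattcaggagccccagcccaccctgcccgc
The COL4A5 stretch holds 2 CCAAT boxes, in opposite orientations, and reaches towards the start of COL4A6, which lies on the other strand with 379 bases between the starts. The COL4A1 and COL4A2 stretch holds 1 CCAAT box and 1 GC box, COL9A2 has 3 GC boxes, 2 of them overlapping by 1 base, COL15A1 has 1, and COL6A3 has neither motif. The COL15A1 stretch lies inside the antisense noncoding gene COL15A1-AS1. Over all 35116 RefSeq promoter windows of 300 bases, 34.6% held a CCAAT box and 45% a GC box. The TATA box (TATAAA, in 11.5% of all windows), the AP-1 site (TGANTCA, 7.71%), the cAMP response element (TGACGTCA, 1.85%) and the palindromic estrogen response element (0.057%) were also searched on both strands. No printed stretch holds any of these 4. A match is a string of letters and was not tested as a binding site.

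Against vehicle, 4 of the 21 collagen genes were past 1.5-fold on the estradiol array, all of them higher, namely the basement membrane chain COL4A5, the type VI chains COL6A3 and COL6A1, and COL15A1. Over all 12068 genes above the floor, 5.83% were higher and 2.64% lower by this rule. With tamoxifen the genes higher past 1.5-fold were COL4A5, COL6A3, COL15A1 and COL6A1 again, and COL9A2 was lower. The background was 6.97% higher and 4.33% lower. The 2 comparisons share the vehicle array. The median difference of the 21 genes was 0.00 with estradiol and 0.03 with tamoxifen, beside 0.02 and 0.02 for all genes above the floor, so the higher genes stood apart from a group that was centred near 0. Of the other 17 collagen genes with estradiol, differences ran from -0.52 to 0.50. Leaving COL9A2 aside, 16 ran from -0.53 to 0.48 with tamoxifen.

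**Figure D1:**
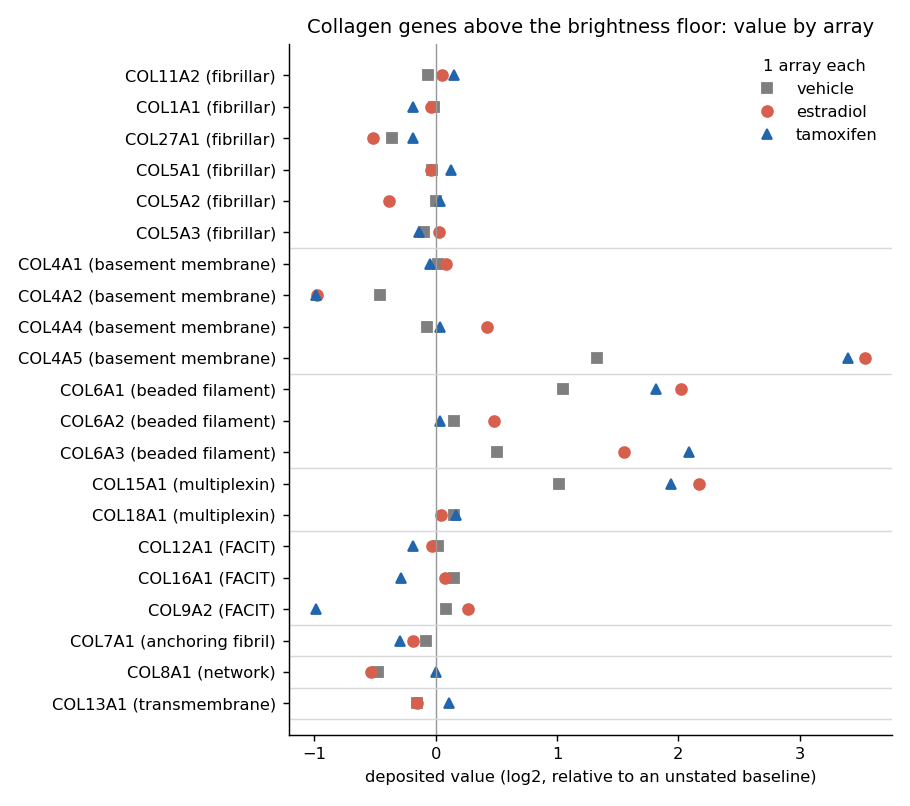
Deposited log2 value (horizontal axis, relative to an unstated baseline) of each of the 21 collagen genes above the brightness floor on the vehicle (square), estradiol (circle) and tamoxifen (triangle) array, 1 array each, ordered by class. COL4A5, COL6A1, COL6A3 and COL15A1 lie to the right of the other genes on every array, the vehicle values included (0.51 to 1.33).

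The type IV chains form basement membranes as fixed triplets, with the common network built from COL4A1 and COL4A2 chains and more restricted networks that contain COL4A3, COL4A4, COL4A5 and COL4A6. COL4A5, the chain mutated in X-linked Alport syndrome, had a value of 1.33 on the vehicle array, 3.54 with estradiol and 3.40 with tamoxifen. The vehicle array was the lowest and the ligand arrays lay close together. COL4A5 was 4.62-fold higher with estradiol (log2 difference 2.21) and 4.19-fold higher with tamoxifen (2.07), which ranked 8 and 5 from the top among the 12068 genes. With the vehicle value doubled the differences were 0.88 and 0.73, still past 1.5-fold. The value rests on 1 probe set, of a type whose probes can match several transcripts. The other probe set of COL4A5, below the floor, differed by 0.26 and 0.36.

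COL4A6 starts next to COL4A5 on the opposite strand, and its 3 probe sets all lay below the floor. Their differences from vehicle spread on both sides of 0, from -0.43 to 0.60 with estradiol and from -0.05 to 0.29 with tamoxifen. COL4A3, with 7 probe sets below the floor, ran from -0.62 to 0.65 with estradiol and from -0.13 to 0.64 with tamoxifen. COL4A4, which shares a divergent start region with COL4A3, had values of -0.08 on the vehicle array, 0.43 with estradiol and 0.03 with tamoxifen. It was higher with estradiol by 0.50, short of 1.5-fold, and by 0.11 with tamoxifen.

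COL4A2 had the lowest difference from vehicle with estradiol among the 21 genes. Its brighter probe set read -0.46 with vehicle, -0.98 with estradiol and -0.99 with tamoxifen. The other probe set read 0.01, -0.74 and -0.50. Both probe sets were thus below vehicle with each ligand, at -0.52 and -0.75 for the estradiol array and at -0.53 and -0.51 for the tamoxifen array. With the vehicle doubled the brighter probe set stood at -0.07 with each ligand, while the other kept -0.76 and -0.52. COL4A1, the partner chain across the 126 bases shown above, lay closer to vehicle as deposited. Against vehicle its probe sets stood at -0.15 and 0.28 for estradiol and at -0.31 and 0.18 for tamoxifen, giving gene differences of 0.07 and -0.07. With the vehicle doubled the gene differences were 0.05 and -0.08 for COL4A1, beside -0.07 and -0.07 for COL4A2.

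Type VI collagen is a heterotrimer that forms beaded microfilaments around cells, and its main chains are COL6A1, COL6A2 and COL6A3. COL6A3, the longest of these chains, was measured by 1 probe set reading 0.51 on the vehicle array, 1.55 with estradiol and 2.09 with tamoxifen. It was 2.06-fold higher with estradiol (1.04) and 3.00-fold higher with tamoxifen (1.58). The 3 arrays were well spaced, with tamoxifen on top. Doubling the vehicle left 0.54 for estradiol, just short of 1.5-fold, and 1.08 for tamoxifen.

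COL6A1 had 8 probe sets that did not move together. The brightest read 1.05 on the vehicle array, 2.02 with estradiol and 1.81 with tamoxifen, which made COL6A1 1.96-fold and 1.70-fold higher (0.97 and 0.77). The other probe sets above the floor stood at -0.29 and -0.01 with estradiol, and at -0.13 and 0.62 with tamoxifen. Averaged over the 3 probe sets above the floor the differences were 0.22 and 0.42, and over all 8 they were 0.02 and 0.12. The brightest probe set stood at -0.07 and -0.28 once the vehicle was doubled. The higher value of COL6A1 therefore holds for 1 probe set, whose probes can match several transcripts. COL6A2, the third main chain, read 0.15, 0.48 and 0.03, a difference of 0.33 for estradiol and of -0.11 for tamoxifen.

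**Figure D2:**
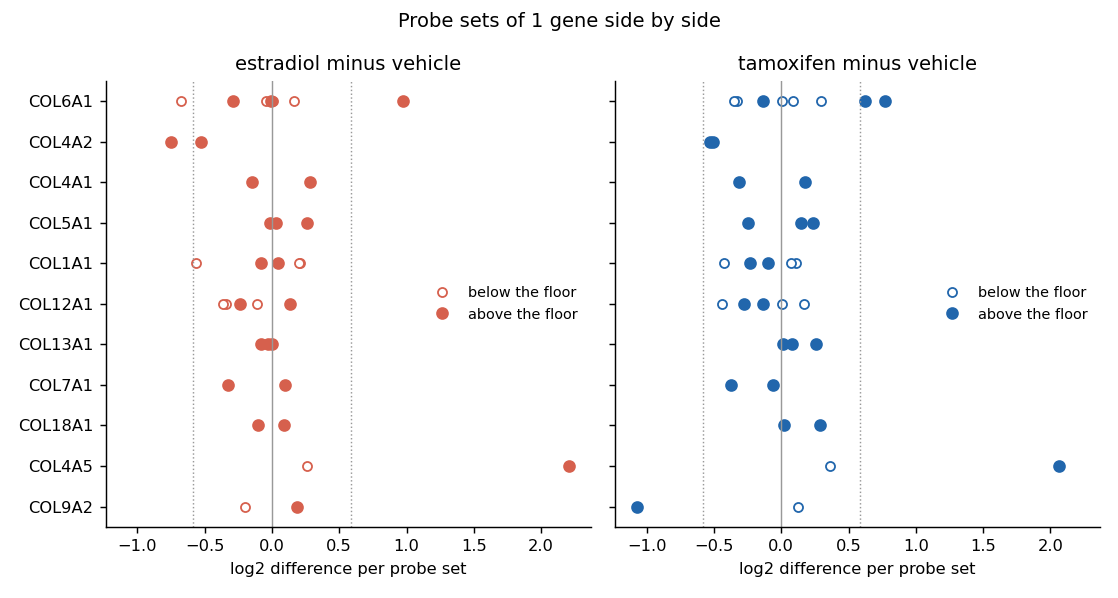
Log2 difference from vehicle (horizontal axis) of each probe set of 11 collagen genes, for estradiol (left) and tamoxifen (right), with filled points above the brightness floor, open points below it and dotted lines at 1.5-fold. COL4A2 is below 0 in both probe sets, while the probe sets of COL6A1 spread from -0.67 to 0.97 with estradiol.

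The multiplexins COL15A1 and COL18A1 sit in basement membrane zones, and COL18A1 is the source of the fragment endostatin. COL15A1 had 1 probe set, which read 1.02 with vehicle, 2.17 with estradiol and 1.94 with tamoxifen. It was 2.22-fold higher with estradiol (1.15) and 1.89-fold higher with tamoxifen (0.92). Doubling the vehicle gave 0.13 and -0.10. COL18A1 read 0.15, 0.05 and 0.17, and its gene value differed from vehicle by -0.10 and 0.02.

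The higher genes shared a feature that the member rule did not use. COL4A5, COL6A1, COL15A1 and COL6A3 had the only vehicle values above 0.5 among the 21 collagen genes, while the other 17 lay between -0.48 and 0.15. Over all genes above the floor, 212 (1.76%) had a vehicle value above 0.5, a threshold chosen after the values were seen. Of these, 86.3% were at least 1.5-fold higher with estradiol and 67.0% with tamoxifen. Their median value was 0.66 on the vehicle array, 1.62 on the estradiol array and 1.44 on the tamoxifen array. With the vehicle doubled their median differences were 0.20 and 0.06 in place of 0.94 and 0.77. Doubling lowers each difference by the gene's own vehicle value. A drop of more than 0.5 in each of these genes was therefore fixed by how they were picked. The part of the narrow vehicle column in these differences was not tested.

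**Figure D3:**
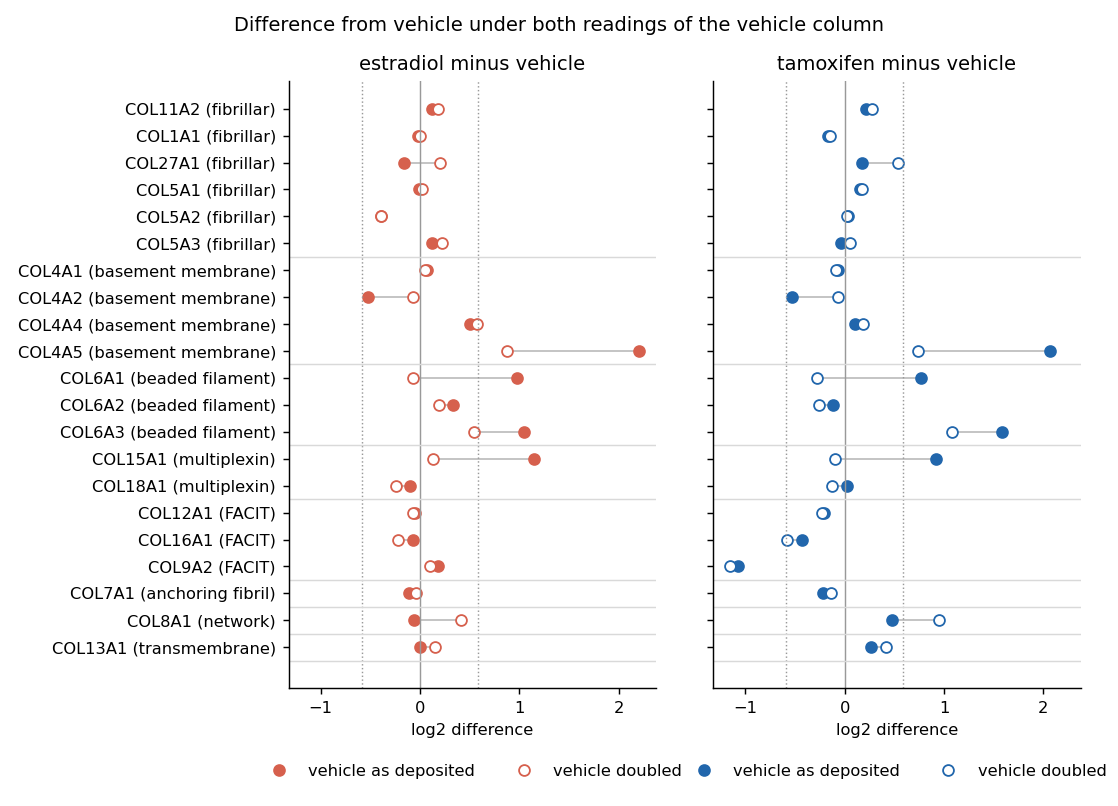
Log2 difference from vehicle (horizontal axis) of the 21 collagen genes for estradiol (left) and tamoxifen (right), with the vehicle value as deposited (filled) and doubled (open) and dotted lines at 1.5-fold. Doubling brings COL6A1 and COL15A1 to within 0.28 of 0 and leaves COL4A5 at 0.88 and 0.73.

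With the vehicle doubled, COL4A5 alone was at least 1.5-fold higher with estradiol among the 21 genes, against a background of 4.39%, and no collagen gene was lower, against 1.91%. With tamoxifen 3 genes were higher, COL6A3 (1.08), COL8A1 (0.95) and COL4A5 (0.73), against 7.14%, and COL9A2 was lower (-1.15), against 3.65%. COL8A1, a short-chain collagen of the network class found beneath endothelium, read -0.48 with vehicle, -0.54 with estradiol and 0.00 with tamoxifen. Its differences as deposited were -0.06 and 0.48.

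No fibrillar collagen above the floor, 6 of 11, passed 1.5-fold in any comparison. At the shares of all genes past the rule (5.83% higher and 2.64% lower with estradiol, 6.97% and 4.33% with tamoxifen, 1.57% and 2.2% between the ligands), a count of 0 of 6 is near the background. Their differences from vehicle ran from -0.39 to 0.12 with estradiol (median -0.02) and from -0.17 to 0.21 with tamoxifen (median 0.09). COL5A1, which with COL5A2 builds the type V collagen that sets fibril diameter, read -0.03, -0.04 and 0.12. COL5A2 read 0.00 with vehicle, -0.39 with estradiol and 0.03 with tamoxifen, so its estradiol array was the low one. COL5A3, a further type V chain, read -0.10, 0.03 and -0.13.

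COL1A1, the main chain of type I collagen, had 2 of 5 probe sets above the floor and read -0.02, -0.04 and -0.18 on the vehicle, estradiol and tamoxifen arrays. COL11A2, a cartilage fibril chain, read -0.07, 0.05 and 0.15. COL27A1 read -0.36, -0.52 and -0.19, with estradiol lowest and tamoxifen highest. All 6 genes lay within 0.42 of each other between the ligand arrays and within 0.39 of vehicle.

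The fibril-associated collagens, which decorate the surface of fibrils, had 3 of 10 genes above the floor. Each of these was lowest on the tamoxifen array, but only COL9A2 passed 1.5-fold. The share of all genes lowest on that array was not counted. COL9A2, a chain of the type IX collagen of cartilage fibrils, read 0.08 with vehicle, 0.27 with estradiol and -0.99 with tamoxifen. The tamoxifen array stood apart, 2.10-fold below vehicle (-1.07) and 2.38-fold below estradiol (-1.25). COL16A1 read 0.15, 0.08 and -0.28, and COL12A1, which binds type I fibrils, read 0.02, -0.03 and -0.19. Probe sets of COL12A1 below the floor stood at 0.35, 0.28 and -0.07 for tamoxifen against estradiol.

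COL7A1, the anchoring fibril collagen that ties epithelia to the dermis, was also lowest with tamoxifen, at -0.08, -0.19 and -0.29. Relative to vehicle its probe sets stood at -0.33 and 0.10 for estradiol and at -0.37 and -0.06 for tamoxifen. The transmembrane collagen COL13A1 read -0.15, -0.16 and 0.11, with all 3 of its probe sets higher with tamoxifen than with estradiol, by 0.09 to 0.26.

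The direct comparison of the ligands subtracts no vehicle value. The vehicle column enters it only through the brightness bands, which decide the genes counted and the probe sets used. Tamoxifen and estradiol, at the same dose and time, differed past 1.5-fold in 1 of the 21 collagen genes, COL9A2, which was lower with tamoxifen, against a background of 1.57% higher and 2.2% lower. COL9A2 ranked 12 from the bottom of the 12068 genes. The second probe set of COL9A2, below the floor, went the other way at 0.33, and averaging both gave -0.46, short of the rule (-0.47 against vehicle). COL6A3 (0.54) and COL8A1 (0.54) were the highest, both short of the rule, followed by COL5A2 (0.42) and COL27A1 (0.33). At the lower end COL9A2 was followed by COL6A2 (-0.45), COL4A4 (-0.39) and COL16A1 (-0.36).

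Between the ligands no chain of type VI collagen passed 1.5-fold by its gene value. COL6A3 stood at 0.54 and COL6A2 at -0.45, with the dim second probe set of COL6A2 at 0.00. The COL6A1 probe sets above the floor read -0.21, 0.16 and 0.63. The 4 type IV chains above the floor lay between -0.39 and 0.00, with COL4A5 at -0.14 and COL4A2 at 0.00. The median of the 21 genes was -0.13, beside -0.02 for all genes above the floor, and the median absolute difference was 0.21 beside 0.16.

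**Figure D4:**
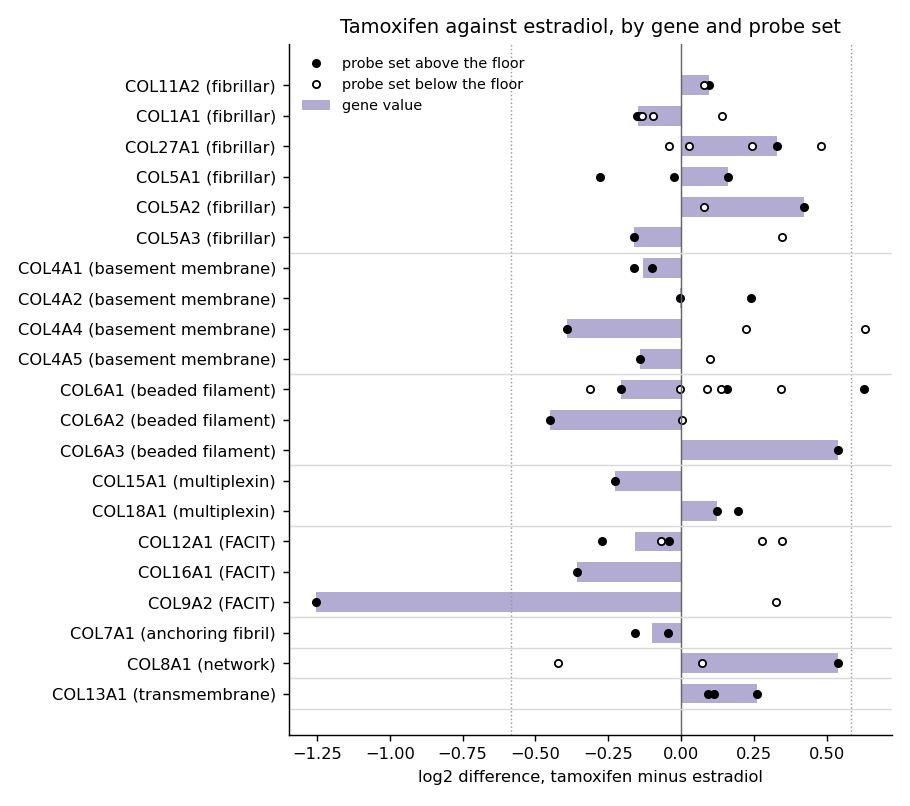
Log2 difference between the tamoxifen and the estradiol array (horizontal axis) for the 21 collagen genes (bars) and their probe sets above (filled) and below (open) the brightness floor, with dotted lines at 1.5-fold. The bar of COL9A2 reaches -1.25, and all other bars lie between -0.45 and 0.54.

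Agreement between probe sets of the same gene gives the only view of error in these data, and it covers the measurement, not the culture. For 9 collagen genes several probe sets lay above the floor. They differed in sign for 7 of the 9 with estradiol minus vehicle, for 3 with tamoxifen minus vehicle and for 3 with tamoxifen minus estradiol. COL5A1, for which 3 probe sets lay above the floor, ran from -0.25 to 0.24 with tamoxifen. COL1A1 differed by 0.01 between its probe sets in tamoxifen minus estradiol. For 12 genes, COL4A5, COL6A3, COL15A1 and COL9A2 among them, only 1 probe set lay above the floor, so no such check exists.

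Counted by probe set above the floor, 4 of 33 were at least 1.5-fold higher with estradiol (background 7%) and 1 lower (4.62%), the dimmer COL4A2 probe set. With tamoxifen 5 were higher (8.2%), including 2 of COL6A1, and 1 lower (5.95%). Between the ligands 1 probe set of COL6A1 was higher (2.35%) and 1 of COL9A2 lower (2.7%).

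Below the floor, 79 probe sets of 34 genes were left. With estradiol 3 were higher past 1.5-fold (background 4.83% of probe sets below the floor) and 3 lower (3.89%). With tamoxifen 2 were higher (4.1%) and 0 lower (3.73%). Between the ligands 5 were higher (4.89%) and 2 lower (5.01%). These counts are small, and their distance from the background was not tested. Of the 22 genes wholly below the floor, COL22A1 was the highest with estradiol (0.92) and COL9A3, a partner chain of COL9A2, the lowest (-0.78). COL1A2, the partner of COL1A1 in type I collagen, was the highest with tamoxifen (0.41) and COL23A1 the lowest (-0.50).

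Enzymes and chaperones that make collagen were set beside the chains, from a list of 40 genes for hydroxylation, folding, export, trimming and cross-linking, of which 39 were named on the array and 30 lay above the floor. With estradiol 3 were at least 1.5-fold higher, LOXL4 (1.05), P4HA1 (0.85) and P4HA2 (0.66), and 0 lower, beside 5.83% and 2.64% of all genes above the floor. With tamoxifen 4 were higher, P4HA1 (1.20), P4HA2 (0.69), FKBP7 (0.67) and LOXL4 (0.65), and 0 lower, beside 6.97% and 4.33%. The list median was 0.18 and 0.13, beside 0.02 and 0.02 for all genes above the floor. Averaging all probe sets of each gene, dim ones included, left 0 higher with estradiol and 2 with tamoxifen.

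P4HA1 and P4HA2 are the catalytic subunits of prolyl 4-hydroxylase, the enzyme that stabilises the triple helix. P4HA1 read 0.10 with vehicle, 0.95 with estradiol and 1.31 with tamoxifen. Doubling the vehicle left its differences at 0.75 and 1.10, since its vehicle value was near 0. P4HA2 read -0.12, 0.53 and 0.56, and doubling gave 0.78 and 0.81. Probe sets did not agree closely. The 2 probe sets of P4HA2 above the floor stood at 0.88 and 0.43 against vehicle with estradiol, and the dim second probe set of P4HA1 by 0.24 (and by -0.08 with tamoxifen). P4HB, the other subunit of the enzyme, differed by 0.03 and 0.11.

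LOXL4, a lysyl oxidase that cross-links collagen, read 0.72, 1.78 and 1.37, with a high vehicle value as for COL4A5. Doubling the vehicle reduced its differences to 0.33 and -0.07. The collagen chaperone SERPINH1 differed by 0.37 and 0.35, and the lysyl hydroxylase PLOD2 by -0.21 and -0.17. FKBP7, a prolyl isomerase of the endoplasmic reticulum, was higher with tamoxifen by 0.67 as deposited and by 0.69 with the vehicle doubled.

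With the vehicle doubled, 6 of the 30 genes were at least 1.5-fold higher with estradiol, beside 4.39% of all genes above the floor, and 5 were higher and 1 lower with tamoxifen, beside 7.14% and 3.65%. Of the 6, SERPINH1, FKBP10, CREB3L1 and BMP1 stood at 0.31 to 0.43 as deposited, short of the rule. Their vehicle values were negative (-0.31 to -0.20), and doubling a negative vehicle value by itself raises the difference. KLHL12, an adaptor that enlarges COPII vesicles for procollagen, was the gene lower with tamoxifen in that setting (-0.81). It was also the 1 gene of the list past 1.5-fold between the ligands, at -0.74, with both its probe sets lower with tamoxifen (-0.83 and -0.65).

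**Figure D5:**
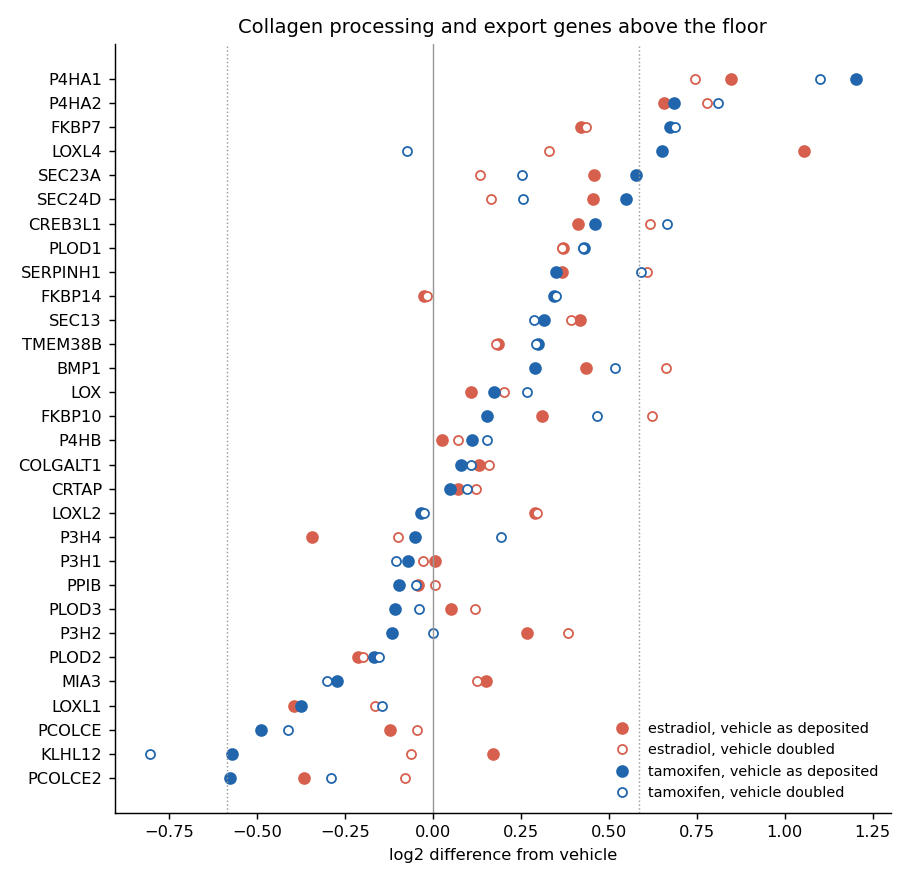
Log2 difference from vehicle (horizontal axis) of the 30 collagen processing and export genes above the brightness floor, ordered by the tamoxifen difference, for estradiol (red) and tamoxifen (blue), with the vehicle as deposited (filled) or doubled (open) and dotted lines at 1.5-fold. P4HA1 and P4HA2 lie right of the upper line in all 4 readings, and LOXL4 does not.

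Collagen receptors had 6 of 9 genes above the floor, with medians of -0.07 for estradiol and -0.03 for tamoxifen. ITGA2, the collagen-binding integrin subunit, was higher by 0.83 and 0.92, with both its probe sets past 1.5-fold on each ligand array. ITGB1, its partner, stood at 0.54 and 0.74, and its 2 brightest probe sets ranged from 0.12 to 0.96 with estradiol. Neither passed 1.5-fold with the vehicle doubled (0.49 and 0.58 for ITGA2, 0.09 and 0.29 for ITGB1). DDR2, a collagen-activated receptor kinase, differed by -0.15 and -0.05. No receptor above the floor passed the rule between the ligands. Counts in this list and in those that follow are of few genes and are to be read against the same shares of all genes.

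Among 11 collagenases, other degrading enzymes and their inhibitors, 6 lay above the floor, with medians of 0.42 and 0.24. MMP1, the interstitial collagenase, was 1.5-fold lower with estradiol (-0.68) and stood at -0.45 with tamoxifen. The doubled vehicle gave -0.36 and -0.13. The inhibitor genes TIMP1 (0.51 and 0.48) and TIMP3 (0.51 and 0.05) and the collagen-degrading cathepsin gene CTSK (0.53 and 0.44) were short of the rule as deposited. CTSK, whose vehicle value was negative (-0.28), passed it with the vehicle doubled (0.81 and 0.72).

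Of 10 matrix proteins that accompany collagen, 5 lay above the floor, with medians of 0.38 and 0.40. THBS1, an adhesive glycoprotein, was higher by 0.61 and 0.96, and its brightest probe sets ranged from -0.04 to 1.13 with estradiol. Fibronectin FN1 was higher by 0.38 and 0.61. Neither gene passed 1.5-fold with the vehicle doubled. TGF-beta is a pathway that raises collagen transcription in fibroblasts, and its list held target genes with TGFB1 and TGFB2 themselves. In it SNAI2 was higher by 1.20 and 1.42 and SMAD7 by 1.08 and 0.71. ID1 was lower with estradiol (-0.89), and the target SKIL stood at -0.39 and -0.30. Of the 8 genes above the floor, 5 lay above 0 with estradiol and 6 with tamoxifen. The medians over the 8 genes were 0.15 and 0.25. With the vehicle doubled SNAI2 stood at 0.37 and 0.59, SMAD7 at 0.54 and 0.16, ID1 at 0.01 and 0.48, and SKIL at -0.52 and -0.43. GAPDH, a reference gene, stood at -0.11 and -0.17 relative to vehicle, and ACTB at -0.05 and -0.34.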

How the data were processed

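Values were the deposited log2 values of 3 arrays of 1 platform, 1 per group. The submitters' processing notes name RMA, version not stated, and the centring, its baseline and the base are not given in the sources used here. Medians near 0 in each column showed that levels had been removed, so differences between columns of the same probe set were used. Depth does not apply to arrays. Brightness bands were read from the binary steps of the deposited numbers, the vehicle steps being shifted by 1, and probe sets at 4 or more (log2) were kept. Probe sets were named through the platform annotation supplied with the values, using those with 1 symbol. Genes were averaged over probe sets of their brightest band. With 1 array per group no test was run, and genes were called at 1.5-fold. The banding was tested on simulated data whose vehicle values were means over a pair of arrays, which the labels do not state for the real vehicle column. The levels of the real probe sets are not known, so how many were misplaced was not measured.

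Named genes were the collagen genes above the floor and, from each other list, up to 4 with the largest differences, with others added for their role after values were seen. The members and lists were chosen with earlier results of these data known. Alternatives were the doubled vehicle, a floor of 8 or none, all probe sets averaged, no cross-reacting probe set types, centring within bands and a 2-fold rule. The mean over probe sets above the floor was added after the data were examined. Scripts used Python 3.11.15, numpy 2.4.6 and pandas 2.3.3.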

Additional observations from a re-analysis of the deposited data

How the results depend on the processing

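Of the recomputed counts and medians over all collagen genes, 50 stayed close to the reported value (counts within 1.5 times) and 16 did not. Of 366 recomputed single-gene differences, 350 kept their side of 1.5-fold, 23 of them with the opposite sign. The 350 include 63 with no floor and 30 with a floor of 8. Those could not change, because the floor decides which genes count and does not enter a gene's value. Many of the rest were fixed too. COL6A3, COL15A1 and COL16A1 have 1 probe set each, so no averaging rule can move them. The mean over probe sets above the floor cannot move the 12 genes with 1 such probe set. Genes whose brightest probe sets are not of a cross-reacting type keep their value when those types are left out. The 350 is therefore not a measure of robustness. Under a doubled vehicle, the higher genes with estradiol numbered 1 in place of 4, the medians were 0.10 (estradiol) and -0.070 (tamoxifen), and 9 single-gene differences changed sign. Of these, 3 had been past 1.5-fold, COL15A1 with tamoxifen (-0.10) and COL6A1 with estradiol (-0.072) and tamoxifen (-0.28). The other 6 had been short of it, with COL8A1 (0.41) and COL27A1 (0.20) moving most, both with estradiol. The mean over all probe sets changed the sign of 12, COL4A4 between the ligands among them (0.15). A floor of 8 left 10 collagen genes, of which 1, COL6A1, was higher with each ligand. COL4A5, COL6A3 and COL15A1 fell below that floor and were not counted. No floor gave 1 lower gene with estradiol and 3 between the ligands. The mean over all probe sets gave 1 lower gene with estradiol, 0 with tamoxifen and 0 between the ligands, whose median became 0.062. The mean over probe sets above the floor, added after the data were examined, gave 1 lower gene with estradiol. Without cross-reacting probe set types 14 genes were left, and COL4A5 was not among them. Of the 14, 2 were higher with estradiol and 1 between the ligands, the ligand median was -0.023, and COL6A1 stood at -0.0093 with estradiol. The 2-fold rule left 2 higher genes with tamoxifen. No cause was tested, other than that a stricter floor or rule tests or counts fewer genes. Centring within brightness bands left these counts and medians close to the reported values. No paired analysis was possible because each group holds 1 array, and for the same reason no replicate could be left out.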
